A study of Arabidopsis thaliana with 11 samples.

Results

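Binding of HY5-VP16 was compared with binding of HY5-SRDX in 5 chromatin immunoprecipitation libraries, 3 of HY5-VP16 and 2 of HY5-SRDX, out of 11 samples in the series. The libraries were chosen by their labels. HY5-VP16 (3 libraries) is the transcription factor HY5 fused to an activation domain, and HY5-SRDX (2 libraries) is HY5 fused to a repression domain. Both proteins carried the FLASH tag, which holds the Flag epitope that was precipitated, and both were driven by the 35S promoter, a viral promoter active in most plant cells. All samples were whole Arabidopsis thaliana seedlings of the Columbia ecotype, grown for 3 days in darkness at 21 °C and then given 2.5 h of simulated white light at 100 µmol per square metre per second. Set 1 held both HY5-SRDX libraries, HY5-VP16 replicates 1 and 2 and a Col-0 control, while HY5-VP16 replicate 3 came from set 3 with a Col-0 control of its own. The other samples were 3 libraries of HY5ox, the tagged protein without an added domain, and 3 controls. The labels do not say whether the seedlings kept an intact HY5 gene, nor whether replicates were separate transgenic lines or separate cultures. A p-value here thus weighs a difference against library-to-library spread that may be only technical.

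HY5 is a basic leucine zipper protein that binds short G-box-like elements in promoters and acts downstream of the photoreceptors when a dark-grown seedling meets light. It is known for its part in greening, in flavonoid synthesis, in the shortening of the hypocotyl and in ultraviolet protection. HY5 itself has no strong activation domain. The VP16 domain comes from a herpesvirus protein and recruits the transcription machinery, whereas SRDX is a short plant repression motif known to recruit corepressors of the TOPLESS family. The comparison asks whether 2 forms of HY5 with the same DNA-binding part, but with opposite added domains, occupied the same places.

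The libraries held 15.7 M, 19.7 M and 56.0 M tags for HY5-VP16 replicates 1, 2 and 3, against 16.1 M and 20.4 M for HY5-SRDX replicates 1 and 2. Peaks had been called by the authors in each library against the control of its set, and numbered 9514, 13375 and 2958 in HY5-VP16, against 20509 and 12672 in HY5-SRDX. A pair of libraries stood apart. HY5-VP16 replicate 3 had the shortest list and 1.83% of its tags in peaks, where the other 4 libraries had 5.94% to 6.67%. HY5-SRDX replicate 1 had the longest list and the narrowest peaks, and its strongest peak reached 104.2 normalized tags (scaled to 10 M tags per library), where the strongest peaks of the other 4 libraries reached 213.4 to 414.4. The counts of calls are therefore given below with and without HY5-VP16 replicate 3. Leaving out HY5-SRDX replicate 1 leaves 1 HY5-SRDX library, so only differences are given for that setting.

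Peaks that overlapped by at least 1 bp were merged over the 5 libraries into 38229 regions. Most of these, 27409, were found in 1 library, and 15529 of those were in HY5-SRDX replicate 1 alone. A total of 1021 regions were present in all 5 libraries. Another 384 regions were in all 3 HY5-VP16 libraries and in neither HY5-SRDX library, and 895 were in both HY5-SRDX libraries and in no HY5-VP16 library. Each of the 1021 shared regions was given a percentile rank within each library by its normalized tag count, with 100 for the region with most tags, so that every library had the same number of ranks. Over these regions the Spearman correlation of ranks was 0.652 to 0.728 between HY5-VP16 libraries, 0.595 between the HY5-SRDX libraries and 0.278 to 0.477 between constructs. These correlations are a description across regions, and libraries of set 1 share a control.

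By limma on the ranks, with Benjamini-Hochberg adjustment over all 1021 regions, 50 regions ranked higher in HY5-VP16 (4.9% of those tested) and 21 ranked higher in HY5-SRDX (2.06%), 71 in all (6.95%), at an adjusted p below 0.05. At an unadjusted p below 0.05 there were 245 regions. In all 71 the HY5-VP16 ranks and the HY5-SRDX ranks did not overlap. Over all shared regions the ranks of the constructs did not overlap at 216 regions with HY5-VP16 higher (21.2%) and at 208 with HY5-SRDX higher (20.4%). The median difference, HY5-VP16 minus HY5-SRDX, was -0.15 percentile points over all regions with an interquartile range of -17.0 to 15.8, and 333 regions differed by less than 10 points. The median SD between libraries of one construct was 12.8 points in HY5-VP16 and 11.4 points in HY5-SRDX.

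The number of calls rested on single libraries. Within set 1 alone, which leaves out HY5-VP16 replicate 3, limma called none of 2054 shared regions (0%), with 342 at an unadjusted p below 0.05. Of the 71 called regions, 70 could be tested there and 70 kept their direction, which is no sign of stability, since ranks that do not overlap keep their direction when a library is left out. The count was 1 of 1055 regions without HY5-VP16 replicate 2 and 34 of 1031 without HY5-VP16 replicate 1. Leaving out a HY5-SRDX library leaves 1 on that side, without replication, so a count from such a fit is not used here. The count was also 0 when ranks were taken within each whole peak list (36 at an unadjusted p below 0.05 by limma) or when the fold over the control was ranked instead of the tag count (65 at an unadjusted p below 0.05), with 71 and 67 of the 71 regions in the same direction. Of the 29 called regions named below, all 28 that could be tested lost the call in set 1 alone. They are described by their values in every library, and a call given with them holds for the 5 libraries together.

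**Figure D1:**
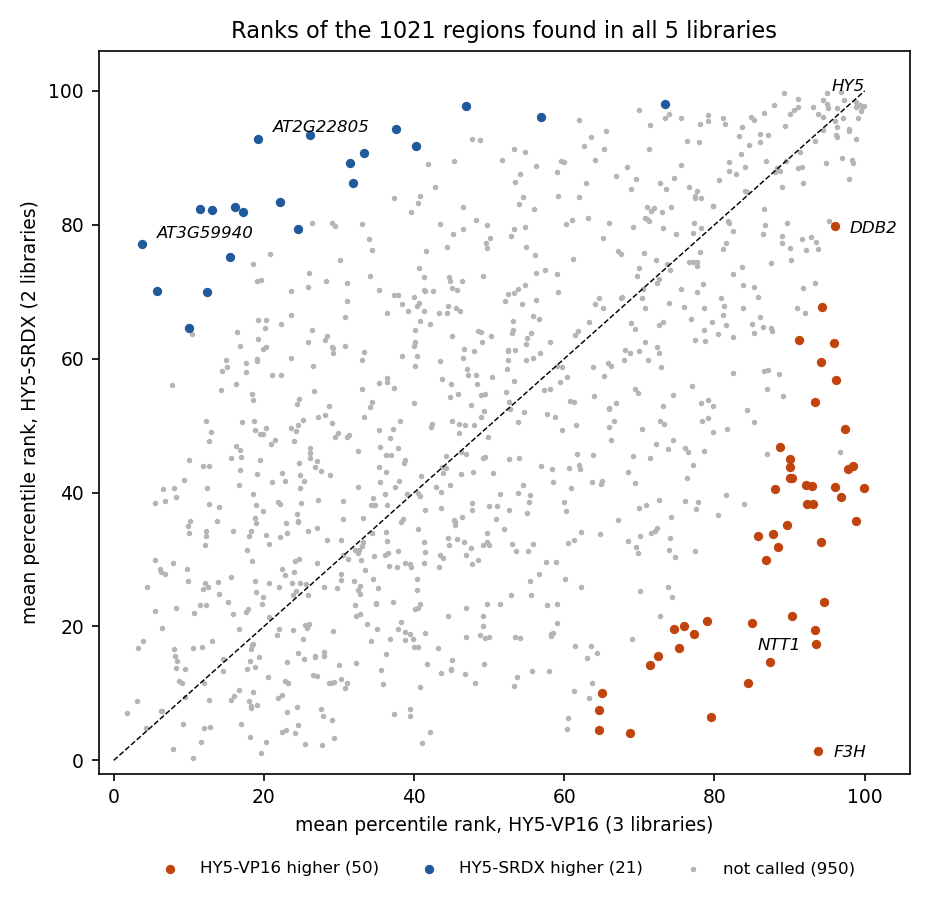
Each point is one of the 1021 regions found in all 5 libraries, with its mean percentile rank in the 3 HY5-VP16 libraries on the x axis and in the 2 HY5-SRDX libraries on the y axis (100 is most tags). The 50 regions called higher in HY5-VP16 lie mostly at the right edge, the 21 called higher in HY5-SRDX at the upper left, and HY5 lies at the upper right corner near the dashed line of equal ranks.

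The merged region that differed most lay in the promoter of F3H (AT3G51240), which encodes flavanone 3-hydroxylase, an early enzyme of the flavonol and anthocyanin branch. It spans chr3:19024825-19025284 of TAIR10, and its peaks centred a median 155 bp upstream of the start site of the authors' gene models. F3H had percentile ranks of 99.2, 86.0 and 96.3 in HY5-VP16, against 2.16 and 0.74 in HY5-SRDX. The 3 HY5-VP16 libraries were near the top of the shared regions and both HY5-SRDX libraries near the bottom. In normalized tags, F3H had 250.4, 95.8 and 131.9 in HY5-VP16, against 24.2 and 31.4 in HY5-SRDX. The authors' fold over the control was 21.2, 8.77 and 10.8 in HY5-VP16, against 3.80 and 3.84 in HY5-SRDX, just over the 3-fold limit of the peak caller. The mean rank was 93.8 ± 6.95 in HY5-VP16 (SD, n = 3) and 1.45 ± 1.005 in HY5-SRDX (SD, n = 2), a difference of 92.4 ± 16.2 percentile points (moderated SE, here and below after a difference; limma adjusted p = 0.00202). Within set 1 the difference was 94.5 points with a limma adjusted p of 0.161. The same region is also assigned to AT3G51230 and AT3G51238. The peaks did not lie at one place. The peak of HY5-VP16 replicate 1 spanned 19024912 to 19025164, and those of HY5-SRDX replicates 1 and 2 spanned 19024937 to 19025103 and 19025076 to 19025284. When peaks were merged only at an overlap of 50% of the shorter peak, F3H was no longer a region of all 5 libraries. Its place among the shared regions, and with it the test, thus rests on the 1 bp rule.

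The next regions on this side with an assigned gene belonged to genes of varied function. NTT1 (AT1G80300), a nucleotide transporter gene of the plastid envelope, had ranks of 96.6, 89.9 and 94.0 in HY5-VP16, against 15.1 and 19.7 in HY5-SRDX, at a site 1621 bp upstream (difference 76.1 ± 15.1, limma adjusted p = 0.00363). RPT2 (AT2G30520), a signalling gene of blue-light phototropism, had 89.6, 94.9 and 99.3 in HY5-VP16, against 33.4 and 13.8 in HY5-SRDX (difference 71.0 ± 14.5, limma adjusted p = 0.00363). In both genes every HY5-VP16 library ranked far above both HY5-SRDX libraries. DJ1B (AT1G53280), a homologue of the human DJ-1 gene, had 84.5, 77.5 and 76.4 in HY5-VP16, against 4.61 and 8.28 in HY5-SRDX, with the region centred 73 bp upstream. A region within the body of HAI1 (AT5G59220), a protein phosphatase that restrains abscisic acid signalling, had ranks of 87.7, 97.3 and 95.2 in HY5-VP16, against 26.96 and 12.01 in HY5-SRDX (difference 73.9 ± 15.03, limma adjusted p = 0.00363). It also lies in the promoter of the neighbouring AT5G59210, 1074 bp upstream of its start. Without an assigned gene, 1 region of this size (72.6 points) was left unnamed. The list of 8 was completed by AT1G68500, AT4G13010 and AT3G21320, with differences of 72.9, 68.8 and 64.6 points. AT3G21320 was the least even of them, with 80.4, 45.7 and 80.0 in HY5-VP16, against 3.53 and 4.71 in HY5-SRDX.

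Regions with an assigned gene that ranked higher in HY5-SRDX were led by the promoter of AT2G22805 (chr2:9710438-9710800), a gene without an assigned symbol. It had ranks of 24.02, 9.80 and 23.97 in HY5-VP16, against 92.0 and 93.7 in HY5-SRDX, a difference of -73.6 ± 16.8 points (limma adjusted p = 0.00613). All HY5-VP16 libraries were in the lower part of the range and both HY5-SRDX libraries close to the top. AT3G59940, named KMD4 in RefSeq and known as a Kelch-repeat F-box protein that targets cytokinin response regulators for degradation, had 8.73, 0.59 and 2.06 in HY5-VP16, against 90.3 and 63.8 in HY5-SRDX (difference -73.3 ± 17.2, limma adjusted p = 0.00853). Its fold over the control was 70.05, 11.3 and 3.61 in HY5-VP16, against 67.5 and 105.25 in HY5-SRDX, so that the folds of the constructs overlapped where the ranks did not. GLX1 (AT1G11840), a glyoxalase gene of methylglyoxal detoxification, had ranks of 7.25, 8.19 and 33.1 in HY5-VP16, against 84.5 and 80.7 in HY5-SRDX (limma adjusted p = 0.0204). CIPK17 (AT1G48260), a protein kinase gene of calcium signalling, had 21.5, 30.5 and 14.6 in HY5-VP16, against 83.3 and 83.4 in HY5-SRDX, within the gene body 729 bp downstream of the start. BTI3 (AT5G41600), a reticulon-like gene, had 14.2, 7.65 and 24.4 in HY5-VP16, against 79.5 and 70.8 in HY5-SRDX. The other 3 of the 8, AT5G16120, AT5G21940 and AT4G32480, differed by -67.3, -64.6 and -57.7 points. Another 3 called regions without an assigned gene, with differences of -70.9, -69.0 and -64.4 points, were left unnamed. This side depended on the scale. Ranked by fold over the control, the 8 differences were -47.0 to 10.5 points, with AT5G21940 turned to 10.5, BTI3 at -6.61, AT4G32480 at -11.0 and AT2G22805 at -25.6, while the 8 on the HY5-VP16 side were 37.8 to 64.6 points. Without HY5-SRDX replicate 1, which leaves 1 HY5-SRDX library, the 8 differences were -73.3 to -54.4 points. GLX1 and BTI3 were not regions of all 5 libraries when an overlap of 50% was required. Intervals of single regions were wide, from -108 to -39.5 points at AT2G22805 for example, and the linear model does not bound them at 100.

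**Figure D2:**
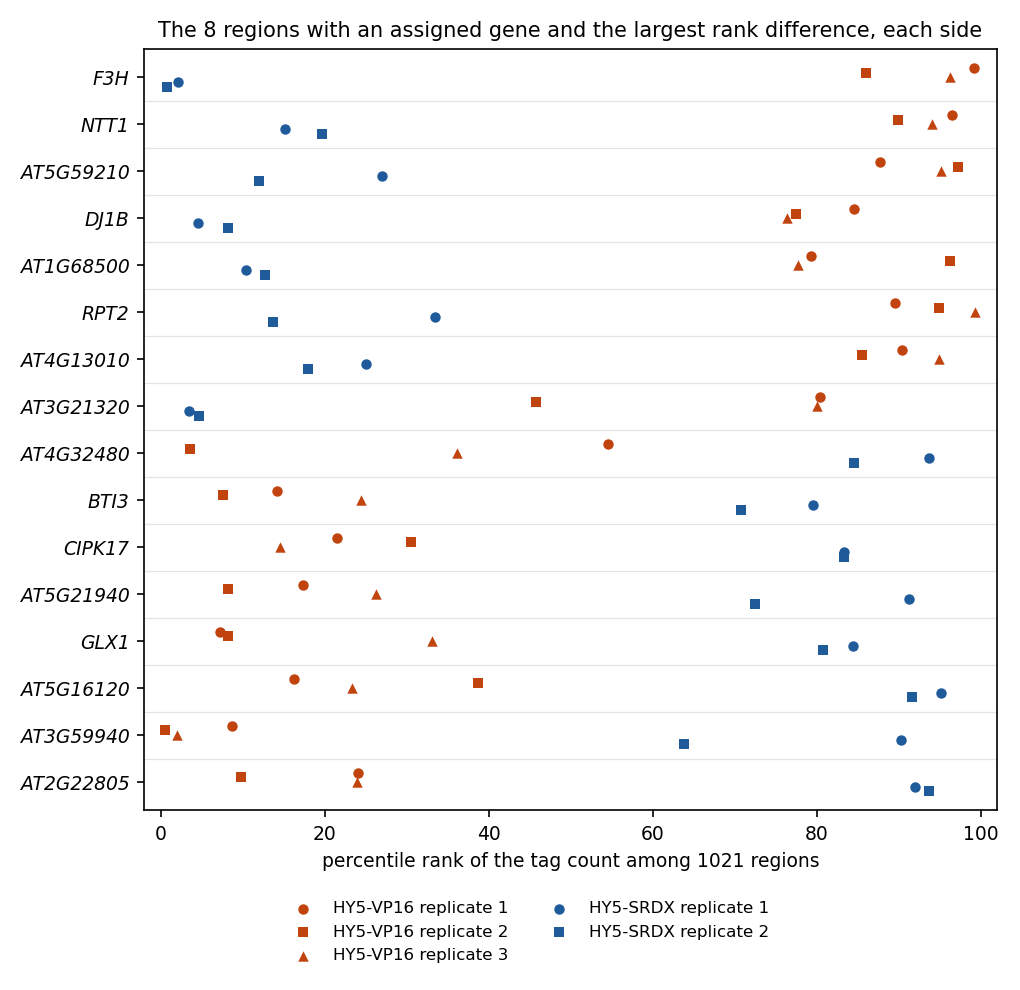
Percentile ranks among the 1021 shared regions (x axis) are drawn per library for the 8 regions on each side that have an assigned gene and the largest rank difference, HY5-VP16 in orange and HY5-SRDX in blue, with a marker shape for each replicate. At F3H the HY5-VP16 libraries lie between 86.0 and 99.2 and the HY5-SRDX libraries at 2.16 and 0.74, and at AT2G22805 the HY5-VP16 libraries lie between 9.80 and 24.02 and the HY5-SRDX libraries at 92.0 and 93.7.

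At the other end stood places that both constructs ranked at the top. A total of 7 shared regions with an assigned gene were in the strongest 1% of the whole peak list in all 5 libraries. The promoter of HY5 itself (AT5G11260; chr5:3594921-3595187, centred 65 bp upstream of the start site) had ranks of 99.9, 100.0 and 100.0 in HY5-VP16, against 96.6 and 99.02 in HY5-SRDX. Its normalized tags were 323.1, 213.4 and 287.5 in HY5-VP16, against 78.8 and 193.9 in HY5-SRDX. The rank difference was 2.15 ± 2.88 points (95% interval -3.69 to 7.99, limma adjusted p = 0.677). Ranks near 100 leave little room, and on median-centred log2 tag counts HY5 was 0.76 higher in HY5-VP16 (limma adjusted p = 0.00444; 0.000594 on normal scores of the ranks). PP2CA (AT3G11410), a protein phosphatase of abscisic acid signalling, and GI (AT1G22770), a gene of the circadian clock, differed by 2.61 ± 3.02 and 0.46 ± 2.97 points. SIG5 (AT5G24120), a sigma factor gene for plastid transcription, and CPC (AT2G46410), a regulator of epidermal patterning, share their regions with AT5G24130 and AT2G46420 and differed by 2.07 ± 2.93 and 1.52 ± 2.96 points.

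The light signalling, clock and B-box lists had 7, 9 and 4 shared regions, and none was called. With 6.95% of all shared regions called, so few regions would hold few calls, so this absence says little about these genes. The list of light receptors and signalling genes had 7 shared regions, with differences of -13.7 to 25.5 points around a median of 1.98, and limma called none of them. The circadian clock list had 9 regions, with differences of -40.1 to 23.1 around a median of 0.46, and none was called. The B-box list, zinc finger partners of HY5, had 4 regions between -13.5 and 11.97, none called. Of the flavonoid list 3 regions were shared, and only F3H was called. MYB11, a regulator of flavonol synthesis whose region lies nearer to ERDJ3B, had 53.8, 67.1 and 88.6 in HY5-VP16, against 55.0 and 54.6 in HY5-SRDX. DFR, the entry enzyme of anthocyanin synthesis, had 0.59, 22.1 and 0.88 in HY5-VP16, against 10.4 and 48.7 in HY5-SRDX, at a region that lies nearer to IPK1. The values of MYB11 and of DFR overlapped between the constructs, and neither region was called.

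The abscisic acid list had 9 shared regions with a median difference of 11.6 points, set against -0.15 over all shared regions, and 2 of the 9 were called, both higher in HY5-VP16, where 4.9% of all shared regions were called in that direction. They were the HAI1 region above and ABF2 (AT1G45249), which encodes a transcription factor of abscisic acid responses and had 96.7, 93.4 and 92.7 in HY5-VP16, against 53.3 and 82.3 in HY5-SRDX (difference 26.5 ± 7.87, limma adjusted p = 0.0367). The call at ABF2 was lost on median-centred log2 tag counts, with a limma adjusted p of 0.0955. Without HY5-SRDX replicate 1, which leaves 1 HY5-SRDX library, the difference at ABF2 was 6.74 points. HAI1 had 2 further shared regions, both assigned to its promoter. One, 200 bp upstream of the start, had ranks of 86.2, 82.9 and 89.0 in HY5-VP16, against 53.3 and 79.1 in HY5-SRDX (limma adjusted p = 0.233). The other, 2064 bp upstream, had 73.5, 58.2 and 38.6 in HY5-VP16, against 62.4 and 59.4 in HY5-SRDX (limma adjusted p = 0.912). The difference at HAI1 thus passed the test at 1 of its 3 regions, the one within the gene body.

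The TOPLESS family, the corepressors that SRDX is known to recruit, had 2 shared regions among 5 genes, named here after their values were seen. TPL (AT1G15750) had ranks of 75.2, 53.0 and 57.7 in HY5-VP16, against 80.4 and 88.0 in HY5-SRDX (difference -22.2 ± 13.2, limma adjusted p = 0.300). TPR2 (AT3G16830) had 77.9, 95.1 and 90.9 in HY5-VP16, against 96.9 and 98.9 in HY5-SRDX (difference -9.93 ± 4.86, limma adjusted p = 0.204). Both HY5-SRDX values lay above the HY5-VP16 values at each gene, as at 20.4% of all shared regions, and neither difference passed the test. The housekeeping list gave 4 regions with differences of -28.0 to -7.33 points, none called.

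A group of 22 genes of protein folding in the endoplasmic reticulum was put together after the values were seen, so its counts are a description that supports no theme. It had 10 shared regions, of which limma called 6, all higher in HY5-VP16, where 4.9% of all shared regions were called in that direction. Its median difference was 42.5 points, set against -0.15 over all shared regions. Without HY5-SRDX replicate 1, which leaves 1 HY5-SRDX library, the differences of these 6 were 14.6 (CRT1b) to 53.8 points. No call of the 6 held without HY5-VP16 replicate 1 or 2. BIP1 (AT5G28540) and BIP2 (AT5G42020), luminal Hsp70 chaperone genes, had 65.8, 50.8 and 77.3 and 49.8, 81.6 and 86.3 in HY5-VP16, against 0.20 and 8.82 and 19.2 and 12.01 in HY5-SRDX. Their coding sequences are known to be nearly identical, but the likeness of these promoter regions was not examined. The sources used here do not say how reads matching both were treated, so these 2 values are uncertain. SHD (AT4G24190), the Hsp90 chaperone of the same compartment, had 79.9, 69.1 and 74.9 in HY5-VP16, against 12.9 and 26.4 in HY5-SRDX (difference 55.0 ± 16.5, limma adjusted p = 0.0382). ERO1 (AT1G72280), an oxidase gene for disulfide formation, had 90.8, 91.6 and 80.8 in HY5-VP16, against 33.4 and 34.2 in HY5-SRDX (limma adjusted p = 0.0204). At both regions the constructs were well apart. HY5-SRDX replicate 1 had a stronger promoter peak outside the ranked region at SHD (33.5 normalized tags, against 27.9) and at BIP1 (36, against 21.1). At BIP2, CRT1b, ERO1 and DER1 its strongest peak was the ranked one. The calreticulin gene CRT1b (AT1G09210) and DER1 (AT4G29330), which acts in the export of misfolded proteins, differed by 45.2 ± 13.4 and 39.8 ± 10.4 points. CNX1, the calnexin gene, was 19.9 ± 10.7 points higher, which did not pass the test (limma adjusted p = 0.249). CRT1a, ERDJ3B and ERDJ3A differed by 16.3 ± 18.1, 15 ± 15.4 and -3.46 ± 16.99 points, with values that overlapped between the constructs. Ranked by fold over the control, ERO1 and ERDJ3B turned to differences of -0.94 and -8.37 points.

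**Figure D3:**
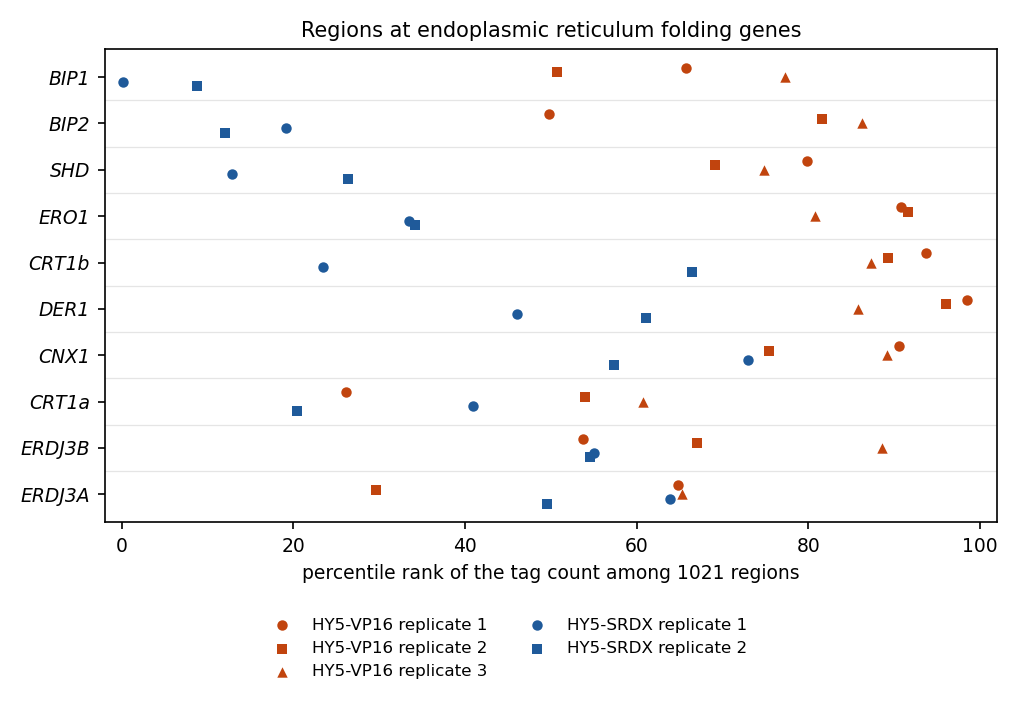
Percentile ranks among the 1021 shared regions (x axis) are drawn per library for the 10 shared regions at endoplasmic reticulum folding genes, HY5-VP16 in orange and HY5-SRDX in blue, with a marker shape for each replicate. The upper 6 rows, BIP1 to DER1, are the called ones, and at ERDJ3A the libraries of the constructs interleave.

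Regions of both directions lay mostly in promoters. Of the 50 regions higher in HY5-VP16, 42 were in promoters, here overlapping the 2000 bp upstream of a start site, 6 in gene bodies and 2 unassigned. Of the 21 higher in HY5-SRDX, 16 were in promoters, 1 in a gene body and 4 unassigned, and of the 950 regions not called 82.1% were in promoters. The median distance of the promoter regions to the start site was 200 bp for those higher in HY5-VP16, 642.5 bp for those higher in HY5-SRDX and 230.0 bp for those not called. Control tags are comparable within a library only. Their medians under the regions higher in HY5-VP16 were 15.7, 13.95 and 78.0 for HY5-VP16 replicates 1, 2 and 3 and 9.9 and 16.2 for HY5-SRDX replicates 1 and 2. Under the regions higher in HY5-SRDX they were 15, 10.8 and 59.0 for the HY5-VP16 libraries and 9.5 and 17.6 for the HY5-SRDX libraries. Control tags were thus somewhat higher at the regions that led in HY5-VP16 in 4 of the 5 libraries, and their part in the calls was not tested.

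HY5ox replicate 2, of set 2, had a hy5 control and shared none with the 5 libraries, so its ranks did not enter the comparison. It held a peak at 49 of the 50 regions higher in HY5-VP16 (98.0%) and at 19 of the 21 higher in HY5-SRDX (90.5%). Among the 950 regions not called it held one at 892 (93.9%), so these shares lie near that of the other shared regions. The median percentile of these peaks within its whole list was 97.0 for the regions higher in HY5-VP16, 67.0 for the regions higher in HY5-SRDX and 83.9 for the regions not called. At F3H it ranked at 96.2, at AT2G22805 at 51.8 and at AT3G59940 at 23.4. Ranks of HY5 without an added domain were thus higher in this library at the regions that led in HY5-VP16. Both groups had been chosen by their ranks in the constructs, so any library ordered more like HY5-VP16 would give this order. It is a description and was not tested.

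Gene lists gave the same comparison as presence or absence. The authors' lists named 23832 genes in at least 1 of the 5 libraries and 2053 in all 5 (8.61%). In all 3 HY5-VP16 libraries and in neither HY5-SRDX library there were 234 genes (0.982%), and in both HY5-SRDX libraries and in no HY5-VP16 library 1386 genes (5.82%). The 3 HY5-VP16 lists held 10301, 13148 and 3643 genes, against 16408 and 11932 in the HY5-SRDX lists. Within set 1 alone they were 933 (3.92% of 23787) for HY5-VP16 and 1412 (5.94%) for HY5-SRDX. With each library reduced to its 2958 strongest peaks the order turned round, to 624 genes for HY5-VP16 and 212 for HY5-SRDX.

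The gene groups of the constructs differed in how often their libraries shared a place. The HY5-SRDX shares rest on 2 libraries, including replicate 1, which stood apart. Of its 20509 peaks, 17.5% were found in the other HY5-SRDX library. The part of this library in the shares was not tested. For 203 of the 234 HY5-VP16 genes (86.8%) the same merged region was assigned to the gene in all 3 HY5-VP16 libraries. For 367 of the 1386 HY5-SRDX genes (26.5%) the same region was assigned in both HY5-SRDX libraries, and the other 1019 had peaks at separate places of the gene. Within set 1, 737 of 933 HY5-VP16 genes (79.0%) and 378 of 1412 HY5-SRDX genes (26.8%) shared a region. The strongest peak of a gene had a median whole-list percentile of 56.2 to 79.4 in the HY5-VP16 libraries for the HY5-VP16 genes, and of 27.7 to 53.0 in the HY5-SRDX libraries for the HY5-SRDX genes. It was a promoter peak for 82.5% to 83.8% of the HY5-VP16 genes and for 50.6% to 67.3% of the HY5-SRDX genes.

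The HY5-VP16 genes with the best mean ranks had strong peaks in every HY5-VP16 library. AT2G45610, without an assigned symbol, had whole-list percentiles of 99.4, 99.7 and 98.95 in HY5-VP16 and was not listed in either HY5-SRDX library. PHT3;3 (AT2G17270), a mitochondrial phosphate carrier gene, had 99.7, 99.9 and 95.9 in HY5-VP16, and DCF (AT3G48720), a gene for feruloylation of cutin, had 98.8, 98.6 and 96.7, both in the gene body. ELIP2 (AT4G14690), an early light-induced protein of photoprotection, had 97.9, 96.8 and 95.2 at chr4:8417601-8417853 in replicate 1, a promoter peak that it shares with AT4G14695. AT2G25530, GRX4 and its neighbour AT3G15670 completed the group. Of these 8 genes all were listed in HY5ox replicate 2, where ELIP2 was at 75.1. ELIP2 was the 1 member of the photoprotection and DNA repair list, which has 11 members, in the HY5-VP16 genes.

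Among the leading HY5-SRDX genes, AT5G60270, a lectin receptor kinase gene, and its neighbour AT5G60260 shared a promoter peak at percentiles 98.3 and 94.9 in HY5-SRDX and were listed in no HY5-VP16 library. NAXT1 (AT3G45650), a nitrate efflux transporter gene, had 96.9 and 92.0 in HY5-SRDX, NIA1 (AT1G77760), the gene of a nitrate reductase, 94.3 and 92.6, and WRKY26, a transcription factor gene, 95.3 and 88.6. The strongest NIA1 peaks of the HY5-SRDX libraries lay at different places, starting at 29236228 and 29238782 of chromosome 1, although a weaker region was common to both. AT5G51190, named ERF105 in RefSeq, had 91.8 and 99.9 with no region in common. The remaining leaders were AT5G67455, a transfer RNA gene, and AT3G15356. Of the 8, AT5G60260 and AT5G60270 were listed in HY5ox replicate 2, both at 48.2. HY5ox replicates 1 and 3, which share a control with some of the 5 libraries, listed 2 and 6 of the 8, and all but WRKY26 were listed in at least 1 HY5ox library.

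Single genes of the gene lists were also on this side. LHCB4.1 (AT5G01530), an antenna protein gene of photosystem II, had 84.2 and 94.9 in HY5-SRDX with a promoter region common to both. PIF4, a growth-promoting factor that is turned over in light, had 3.64 and 47.1, GUN4, a regulator of chlorophyll synthesis, 60.5 and 70.5, and ARR5, a cytokinin response gene, 30.5 and 55.3, none with a common region. The nutrient list held NIA1 and SULTR1;1, the shade and elongation list EXPA2, and the seed and flower list AP3 and AG. No list had more than 2 members among the genes of one construct. Of all listed genes 5.82% were in the HY5-SRDX group, and the seed and flower list, with no part in light responses, had 2 of 15.

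The gene groups were also set against HY5ox replicate 2, but they were filtered unequally. HY5-VP16 genes had to be in 3 lists, the shortest with 3643 genes, and HY5-SRDX genes in 2 lists. HY5-SRDX genes also had to be absent from all 3 HY5-VP16 lists. How far these filters set the shares was not tested. HY5ox replicate 2 listed 207 of the 234 HY5-VP16 genes (88.5%, 95% Wilson interval 83.7% to 91.9%) and 190 of the 1386 HY5-SRDX genes (13.7%, 12% to 15.6%). For comparison, it listed 93.8% of the genes in all 5 libraries and 34.2% of the genes in any of them. Within set 1 the shares were 53.8% for the HY5-VP16 genes and 15.1% for the HY5-SRDX genes. Among HY5-SRDX genes with a common region the share was 13.9%, and among those without one 13.6%. Several genes can share a peak, and the intervals cover counting error only.

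**Figure D4:**
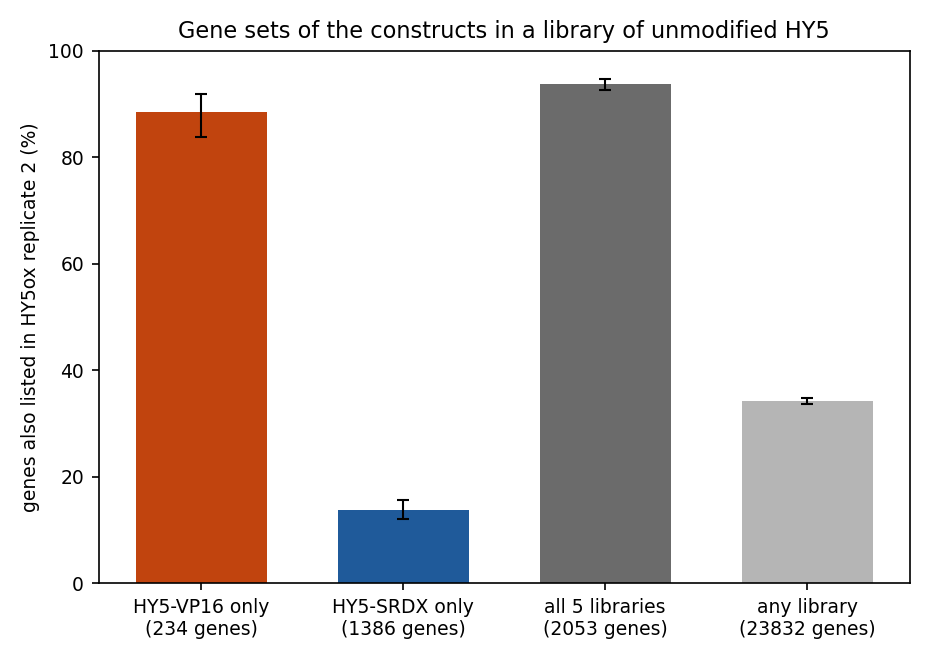
Bars give the percentage of genes that HY5ox replicate 2, a library of HY5 without an added domain with its own control, also listed, for genes of HY5-VP16 only, genes of HY5-SRDX only, genes in all 5 libraries and genes in any of them, with 95% Wilson intervals. The HY5-VP16 bar reaches 88.5% and the HY5-SRDX bar 13.7%, against 34.2% for all listed genes.

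Single peaks were followed over the whole lists by asking how many were found in at least 1 library of the other construct. In HY5-VP16 replicates 1, 2 and 3 this held for 62.8%, 48.2% and 73.0% of peaks, against 19.5% and 55.4% in HY5-SRDX replicates 1 and 2. The mean was 61.3% ± 12.5 in HY5-VP16 (SD, n = 3) and 37.4% ± 25.4 in HY5-SRDX (SD, n = 2), which overlap (two-sided exact permutation p = 0.3, smallest possible 0.1). Without HY5-SRDX replicate 1 the difference of 23.9 percentage points became -0.15. Strong peaks were found more often. Among peaks above percentile 90 of each list the share was 89.0%, 83.4% and 86.4% in HY5-VP16, against 47.6% and 87.0% in HY5-SRDX. Among peaks up to percentile 10 it was 31.8%, 22.9% and 67.3% in HY5-VP16, against 13.5% and 24.3% in HY5-SRDX. HY5-SRDX replicate 1 was thus lowest at every rank, and HY5-SRDX replicate 2 followed the HY5-VP16 libraries of set 1.

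**Figure D5:**
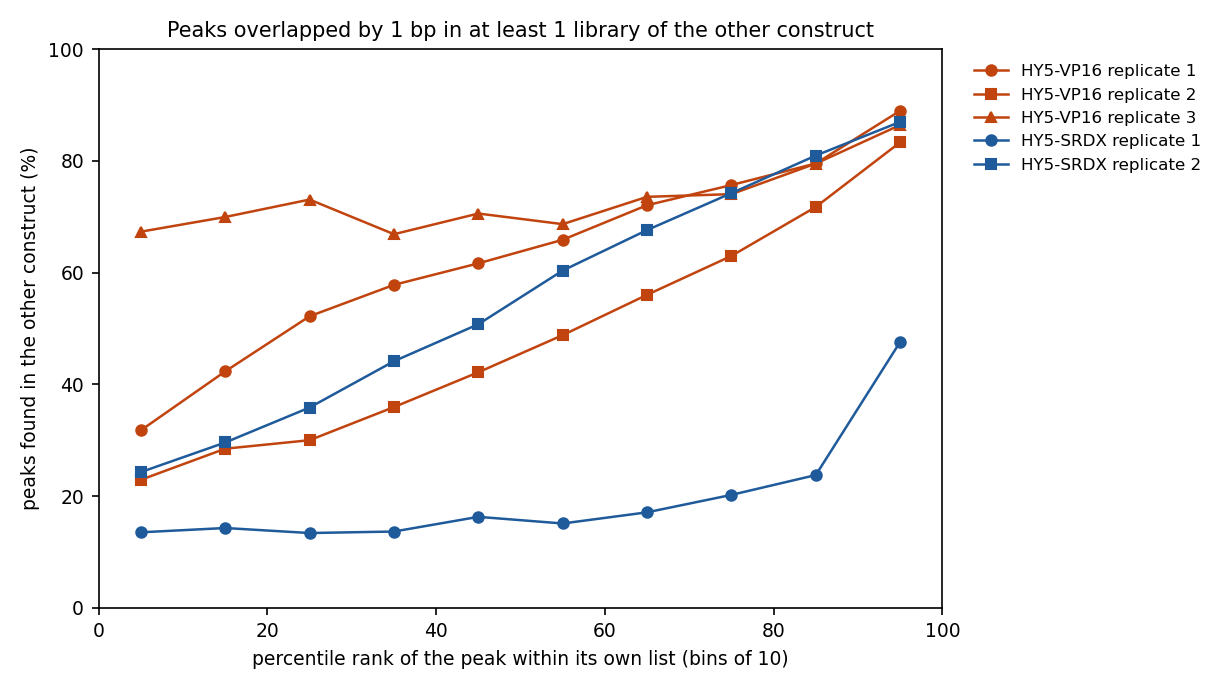
The x axis is the percentile rank of a peak within its own list in bins of 10, and the y axis the percentage of peaks overlapped by at least 1 bp in at least 1 library of the other construct, with a line for each library (HY5-VP16 orange, HY5-SRDX blue). HY5-SRDX replicate 1 stays below the other 4 libraries in every bin and reaches 47.6% in the top bin, where the others lie between 83.4% and 89.0%.

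The HY5-SRDX libraries also differed from each other in where their strongest peaks lay. Among the 2958 strongest peaks, promoter peaks made up 80.5%, 78.6% and 78.7% in HY5-VP16, against 58.2% and 76.3% in HY5-SRDX. The means were 79.3% ± 1.06 in HY5-VP16 (SD, n = 3) and 67.2% ± 12.8 in HY5-SRDX (SD, n = 2), a difference of 12.1 percentage points with no overlap (two-sided exact permutation p = 0.1, the smallest possible). Without HY5-SRDX replicate 1 the difference was 3.01 points. Peaks in gene bodies alone made up 7.47%, 10.1% and 10.95% in HY5-VP16, against 23.6% and 8.79% in HY5-SRDX, where replicate 1 was the highest of the 5 libraries.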

How the data were processed

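The submitters' processing notes name the TAIR10 build and the tools HOMER 4.9.1, Bowtie2 2.3.0 and CASAVA 1.8.2. Per the file headers, HOMER called peaks in each library against the control of its set, at 3-fold over the control and a false discovery rate of 0.001. The deposited signal is the tag count of a peak at 10 M tags per library, and the deposited fold is the ratio to the control tags, both the authors' values. The file header of HY5-VP16 replicate 3 names a reverse scaling, of peak tags towards the control. The authors assigned peaks to genes.

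Peaks were merged at 1 bp overlap, and the highest peak of a library in a region was used. Ranks were compared with limma 3.58.1 in R 4.3.3 (trended, robust moderation, checked on simulated data), HY5-VP16 minus HY5-SRDX, Benjamini-Hochberg threshold 0.05. Shares per library were tested by two-sided exact permutation. Python 3.11.15, pandas 2.3.3, numpy 2.4.6 and scipy 1.17.1 were used. Gene symbols came from RefSeq, whose coordinates were not used.

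The libraries, gene lists and rules were chosen with earlier results of these data known. Named are HY5, the 8 regions on each side with an assigned gene, non-overlapping ranks and the largest difference (called regions without a gene are skipped), the 8 genes on each side with the best mean rank, list members in called regions or in 1 construct only, and up to 5 regions in the top 1% of all lists. Other genes were named after their values were seen, as the text says. Nothing in the labels makes equal replicate numbers a pair. Alternatives were set 1 alone, each library left out, other scales, overlaps and fold limits, a replicate block, and, chosen after seeing the data, the rank of the fold.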

Additional observations from a re-analysis of the deposited data

How the results depend on the processing

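The 71 rank calls became 114 on normal scores, 35 (of 273 regions) at a fold of at least 5, and 0 in set 1 alone, on whole-list ranks and on ranks of the fold, and 0 to 101 with a library left out. Each of the 71 that could be tested kept its direction in these fits, except 4 on ranks of the fold, as non-overlapping ranks largely oblige. Set 1 alone has 2 libraries per construct, as has each fit without a HY5-VP16 library. These fits without a HY5-VP16 library gave 0 to 34 calls. The upper end of the wider range came from the fit without HY5-SRDX replicate 2. That fit holds 1 HY5-SRDX library, without replication on that side, so its count is no measure of stability and is not used. The cause of the lost calls was not tested. A replicate block gave 70 calls, 56 of them among the 71. It ended the calls at BIP1 (limma adjusted p = 0.0697), BIP2 (0.0697), EDL3 (0.0541) and DDB2 (0.084). The deviations of same-numbered libraries from the mean of their construct correlated at 0.0641 and 0.0476. With 2 HY5-SRDX libraries these deviations mirror each other, so the correlations cannot show whether the numbers pair libraries. At an overlap of 50% of the shorter peak, F3H, GLX1, BTI3 and MAPKKK18 could not be tested, and the other 25 called regions named kept their calls. Regions in all libraries numbered 273 at a fold of at least 5, 2054 in set 1 alone, and 1031 to 2054 with a library left out. Genes of HY5-VP16 only numbered 933 in set 1 alone, 624 with 2958 peaks per library, 103 at a fold of at least 5 and 267 to 933 with a library left out. Genes of HY5-SRDX only numbered 212 with 2958 peaks per library, 672 at a fold of at least 5, 796 from promoter assignments and 1412 to 7182 with a library left out, highest without HY5-SRDX replicate 2. The promoter share differed by 3.01 to 21.1 points and the share found in the other construct by -0.15 (reversed, without HY5-SRDX replicate 1) to 38.7 points with a library left out. Reversals at single regions were GI (-0.12 on whole-list ranks, -0.56 to 1.70 with a library left out, lowest without HY5-SRDX replicate 1), AT2G46420 (-0.23 to 3.23 with a library left out, lowest without HY5-SRDX replicate 1), AT3G08960 with ERDJ3A (0.13 in set 1 alone, -11.6 to 9.27 with a library left out), the far promoter region of HAI1 (5.03 with the replicate block, 9.67 in set 1 alone, -12.2 to 9.67 with a library left out, 19.5 on ranks of the fold), and, on ranks of the fold, AT5G21940 (10.5), ERO1 (-0.94) and ERDJ3B (-8.37). The short list of HY5-VP16 replicate 3 limits absence, although this library was the deepest (56.0 M tags, 1.83% of them in peaks). A gene missing from its list may lie under its calling threshold.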

Other observations

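A few further called regions were named after their values were seen. MAPKKK17, MAPKKK18 and EDL3 are again genes of abscisic acid signalling, but they were picked from called regions and support no theme. The abscisic acid list itself had 9 shared regions, of which 6 were higher in HY5-VP16 by mean rank and 2 were called. AT4G37240, without an assigned symbol, held the top or second rank in every HY5-VP16 library, with 356.2, 199.2 and 249.0 normalized tags in HY5-VP16, against 34.1 and 80.5 in HY5-SRDX. MAPKKK17 and MAPKKK18, kinase genes of the abscisic acid pathway that were not on the abscisic acid list, had ranks of 99.8, 99.3 and 96.1 and of 99.02, 96.0 and 98.3 in HY5-VP16, against 65.8 and 22.01 and 69.0 and 17.99 in HY5-SRDX. Their HY5-SRDX libraries lay far apart in rank. At MAPKKK18 the peaks of HY5-SRDX replicates 1 and 2 did not overlap, spanning 1468873 to 1469039 and 1469187 to 1469395. The peaks of HY5-VP16 replicates 1 and 3 began at 1469088 and 1469082. The rank of 69.0 at MAPKKK18 thus belongs to a peak beside theirs, and the region rests on the 1 bp overlap. EDL3, an F-box gene of abscisic acid signalling, had 67.6, 73.3 and 90.6 in HY5-VP16, against 10.4 and 27.4 in HY5-SRDX. DDB2, a damage recognition gene of nucleotide excision repair, had ranks of 96.5, 94.9 and 96.7 in HY5-VP16, against 80.4 and 79.1 in HY5-SRDX (limma adjusted p = 0.0492), but 0.0765 on normal scores and 0.131 on log2 tag counts). On the other side, the promoter of NRT2.2, a high-affinity nitrate transporter gene, had 56.6, 47.6 and 66.6 in HY5-VP16, against 94.4 and 97.9 in HY5-SRDX (limma adjusted p = 0.0492).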
